A study of Mus musculus with 6 samples.

Results

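The Ly6 surface antigen genes described here are Ly6a, Ly6c1, Ly6c2, Ly6d, Ly6e and Ly6g, taken by symbol from the per-library table of an RNA-seq experiment on mouse blast crisis chronic myeloid leukemia (bcCML), so that 6 of 36083 genes were members. Each of the 6 symbols matched 1 row. The study asked how loss of Sdc1, which encodes the cell surface proteoglycan syndecan-1, changes bcCML cells. KLS cells, a marrow fraction rich in stem and progenitor cells (Kit+, Lin-, Sca-1+), came from WT or Sdc1-/- donors on a B6 background. In both groups they were infected with the BCR-ABL and NUP98-HOXA9 oncogenes, cells carrying both were transplanted into immunodeficient NSG mice, and all recipients were sacrificed at one time. Lin- cells, which lack markers of mature blood lineages, were then sorted from the spleens, and 3 libraries labelled WT and 3 libraries labelled Sdc1-/- were made. For primary bcCML transplants the study's methods name sub-lethally irradiated B6 recipients rather than NSG mice.

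The Ly6 proteins are small cell surface molecules with a shared finger-like fold, held in the outer leaflet of the membrane by a glycosylphosphatidylinositol (GPI) anchor. Several of them are antigens by which blood cells are sorted. Ly6a is Sca-1, which marks mouse hematopoietic stem and progenitor cells and is raised by interferon. Ly6c1 and Ly6c2 encode the Ly-6C antigens of monocytes and other myeloid cells, and Ly6g encodes the Ly-6G antigen of neutrophils. Ly6d marks early B lineage progenitors, and Ly6e, also called Sca-2 or TSA-1, is broadly expressed. The sorting steps read some of these proteins directly, since the KLS gate selected on Sca-1 and the lineage antibodies of the study's methods include RB6-8C5, which binds Ly-6G and to a lesser degree Ly-6C. The Lin- cells were therefore chosen in part on the products of the genes reported here.

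The coding sequences show which members can be told apart by short reads. In GENCODE M21 on GRCm38, all 6 genes lie on chromosome 15. Ly6d spans 74762056 to 74763620 on the minus strand, Ly6e 74955051 to 74959905 on the plus strand and Ly6a 74994877 to 74998031 on the minus strand. Ly6c1 spans 75044018 to 75048830 and Ly6c2 75108158 to 75111970, both on the minus strand, and Ly6g 75155240 to 75159126 on the plus strand. The coding sequences of Ly6c1 and Ly6c2 were identical at 384 of 393 bases, or 97.7%. Ly6a matched Ly6g at 83.1% of aligned positions, Ly6c1 at 81.8% and Ly6c2 at 81.6%, whereas Ly6e reached 50.1% to 53.5% and Ly6d 49.9% to 52.4% with any other member. The first 120 coding bases, counted from the A of the start codon, are given for the 4 members that align there without a gap, with capitals where a base differs from Ly6c2.
Ly6c2: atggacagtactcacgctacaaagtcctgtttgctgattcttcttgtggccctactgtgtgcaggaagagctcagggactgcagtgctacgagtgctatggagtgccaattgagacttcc
Ly6c1: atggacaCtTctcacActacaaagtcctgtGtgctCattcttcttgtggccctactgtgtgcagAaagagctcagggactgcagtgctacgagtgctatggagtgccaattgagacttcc
Ly6a: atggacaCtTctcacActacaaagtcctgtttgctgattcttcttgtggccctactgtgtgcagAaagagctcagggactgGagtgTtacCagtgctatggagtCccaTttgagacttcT
Ly6g: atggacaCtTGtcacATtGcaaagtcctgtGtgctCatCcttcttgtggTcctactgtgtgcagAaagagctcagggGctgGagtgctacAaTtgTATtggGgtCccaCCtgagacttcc

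In these 120 bases Ly6c1 differed from Ly6c2 at 6 positions, Ly6a at 10 and Ly6g at 22. Over whole transcripts, 259 of the 2737 different 75-base words of Ly6c2, the length of 1 read, were also found in Ly6c1, which is 9.46%. Of the 1764 words of Ly6c1, 336 (19.0%) occurred in another gene, 259 of them in Ly6c2 and 77 in Ly6a. Ly6a shared 83 of 1311 words (6.33%), and Ly6d, Ly6e and Ly6g shared 0 of 670, 4384 and 867. With shorter words of 31 bases, more were shared with another gene. The shares were 46.8% for Ly6c1, 31.9% for Ly6a, 23.7% for Ly6c2, 9.55% for Ly6g, 0.422% for Ly6e and 0 for Ly6d. The division of reads between Ly6c1, Ly6c2 and Ly6a is therefore uncertain, and the sum of Ly6c1 and Ly6c2 is reported beside each of them.

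The values are TPM, a level per transcript length, which had been rescaled between libraries before deposit, and read depth is unknown. Library sums ran from 944973 to 1058263. Differences between groups are given as log2(value + 1) in libraries labelled Sdc1-/- minus WT, with the standard error (SE) of limma and its p-value adjusted by Benjamini-Hochberg over the 12155 genes whose mean reached 1. Of these, 3810 (31.3%) were called lower and 3564 (29.3%) higher in the libraries labelled Sdc1-/- at an adjusted p below 0.05. Nothing in the labels says that the 3 libraries of a group came from separate mice, and a legend of the study calls WT libraries technical replicates. The p-values therefore measure the spread between these libraries. Sdc1 itself, the targeted gene, had values of 1.75, 1.21 and 1.51 in the WT libraries and 3.847, 3.805 and 4.117 in those labelled Sdc1-/-, so its level was higher under the knockout label (log2 difference 0.99, SE 0.093, limma adjusted p = 1.18e-04). The study's knockout disrupts the signal peptide sequence, and the values do not show which part of the transcript was read. Whether the labels match the genotypes was not tested, and every direction below follows the labels as given. Ddx3y, Eif2s3y, Kdm5d and Uty, 4 Y-linked genes chosen after their values were seen, ranged from 0 to 0.249 in the WT libraries and from 6.26 to 49.8 in those labelled Sdc1-/-, so that sex and genotype cannot be told apart in any difference below.

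Expression of 5 of the 6 Ly6 genes was lower in the libraries labelled Sdc1-/-, and none was higher. Ly6e and Ly6c2 held most of the family's level, Ly6c1 stood in the middle, Ly6a and Ly6g were low, and Ly6d was near 0. Against 31.3% of all tested genes called lower, 5 of the 5 tested members were called lower, and each of the 5 had WT values that did not overlap those labelled Sdc1-/-, as had 34.2% of all tested genes in that direction. The falls differed in size, from 1.33-fold for Ly6e to 4.45-fold for Ly6g.

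**Figure D1:**
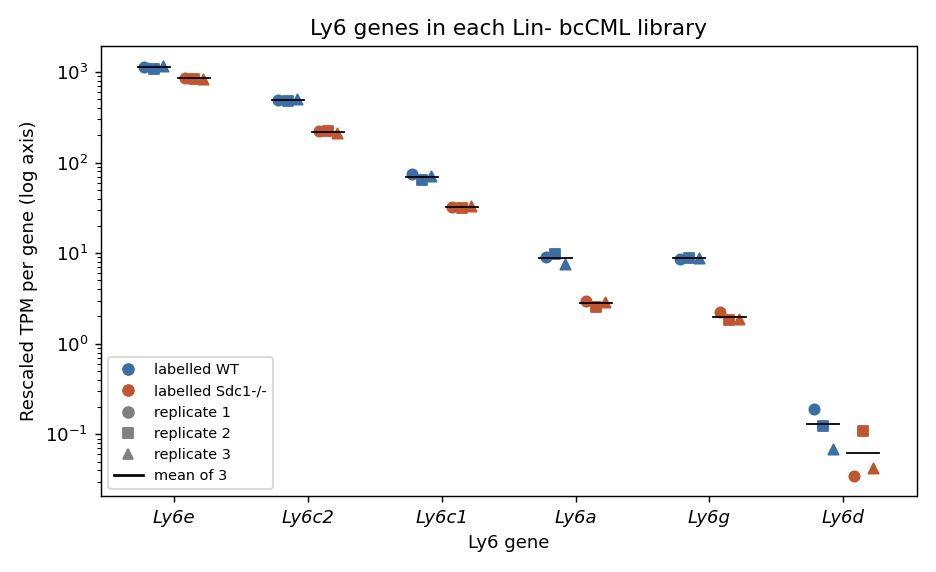
Deposited values of the 6 Ly6 genes in each library (points) with the group mean, by group, on a log axis. For Ly6e, Ly6c2, Ly6c1, Ly6a and Ly6g all WT points lie above all points labelled Sdc1-/-, whereas for Ly6d the groups overlap.

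Ly6e (ENSMUSG00000022587) had the highest level. Its values were 1137, 1089 and 1150 in the WT libraries and 867.1, 843.4 and 831.5 in those labelled Sdc1-/-, with means of 1125 ± 32.2 and 847.3 ± 18.1 (SD, n = 3 each). The lowest WT library lay above the highest library labelled Sdc1-/-. The log2 difference of -0.41 (SE 0.033, limma adjusted p = 6.15e-05) was the smallest of the 5, and 13.9% of tested genes had a lower one. Scaling every library to a sum of 1000000 brought it to -0.26, while the median difference of all tested genes moved from -0.0097 to 0.12. Relative to that median, Ly6e stood at -0.40 on the deposited scale and -0.38 on the rescaled one, and quantile normalization gave a difference of -0.27.

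Ly6c2 (ENSMUSG00000022584) encodes a Ly-6C antigen and ranked second. It measured 487.0, 478.5 and 503.1 in the WT libraries and 220.1, 220.8 and 210.5 in those labelled Sdc1-/-, so the groups were separated by a gap far wider than either range. The difference was -1.17 on the log2 scale (SE 0.033, limma adjusted p = 9.68e-07), a 2.25-fold fall of the mean. Ly6c1 (ENSMUSG00000079018), its near-identical neighbour, measured 74.3, 64.3 and 71.3 against 32.6, 31.7 and 32.7. The WT libraries varied more than the others (SD 5.12 against 0.585), and the log2 difference was -1.09 (SE 0.055, limma adjusted p = 7.83e-06), a 2.16-fold fall. Summing the pair, which removes the division of reads between them, gave 561.3, 542.8 and 574.4 against 252.7, 252.4 and 243.3. This sum was 2.24-fold lower, with no overlap, and an exact two-sided permutation test of 3 against 3 libraries gave p = 0.1, the smallest that such a design allows. Within a library Ly6c2 was 6.56, 7.44 and 7.06 times Ly6c1 in WT and 6.76, 6.97 and 6.43 times in those labelled Sdc1-/-, so this ratio overlapped between groups (exact permutation p = 0.4, adjusted 0.4).

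Ly6g (ENSMUSG00000022582), the neutrophil antigen, showed the greatest fall among the members. Its values were 8.64, 8.79 and 8.88 in the WT libraries and 2.23, 1.81 and 1.87 in those labelled Sdc1-/-. The groups were far apart, with a log2 difference of -1.72 (SE 0.068, limma adjusted p = 3.11e-06), and 0.452% of tested genes had a lower one. Ly6a (ENSMUSG00000075602), the Sca-1 gene, measured 9.04, 9.78 and 7.64 under the WT label against 2.99, 2.57 and 2.90 under the knockout label. This was a 3.13-fold fall of the mean and a log2 difference of -1.36 (SE 0.093, limma adjusted p = 2.72e-05), the widest SE of the 5 members. In the WT libraries Ly6a and Ly6g overlapped in level, while in those labelled Sdc1-/- every Ly6a value lay above every Ly6g value. Both were low for genes whose proteins are used as sorting markers, at the 29.1 and 27.6 percentile of mean level among tested genes, against 98.7 for Ly6e, 96.8 for Ly6c2 and 79.1 for Ly6c1.

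Ly6d (ENSMUSG00000034634), the lymphoid progenitor marker, was near 0 in all libraries. It measured 0.192, 0.125 and 0.0698 in the WT libraries and 0.0349, 0.110 and 0.0427 in those labelled Sdc1-/-, which overlap. Its mean was below the minimum of 1, so it was not tested in the comparison above. With no minimum its log2 difference was -0.087 (limma adjusted p = 0.25).

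**Figure D2:**
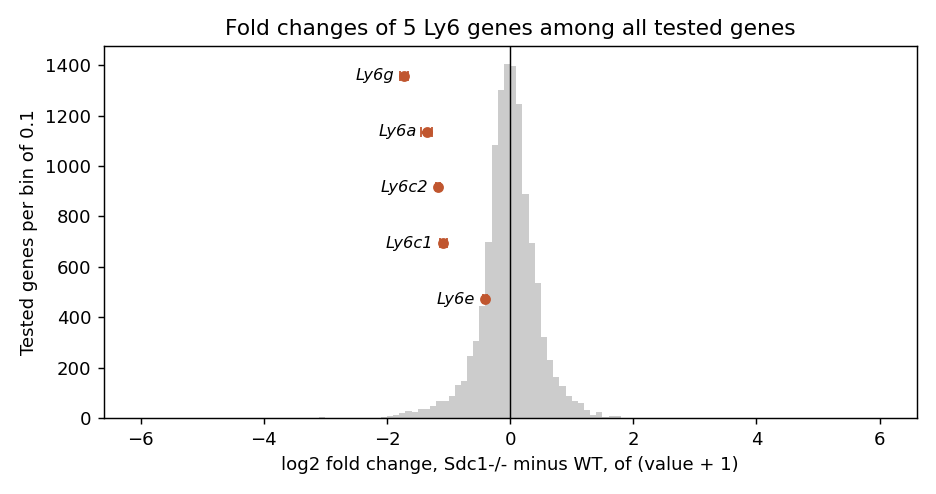
Log2 difference (Sdc1-/- minus WT, of value + 1) of the 5 tested Ly6 genes as points with SE bars, over a histogram of all 12155 tested genes in bins of 0.1. The height of a point has no meaning. All 5 lie below 0, with Ly6e inside the main body of genes and Ly6g at the lower tail.

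Because the falls were unequal, the makeup of the family's summed level shifted. The 6 members summed to 1716, 1650 and 1741 in the WT libraries and 1125, 1100 and 1080 in those labelled Sdc1-/-, a 1.55-fold lower mean with no overlap (exact two-sided permutation p = 0.1, the smallest possible). Ly6e went, as a share of that sum, from 66.1% ± 0.138 to 76.9% ± 0.229 (SD, n = 3 each), and Ly6c2 went from 28.8% ± 0.327 to 19.7% ± 0.308. Ly6c1 went from 4.11% to 2.94%, Ly6a from 0.519% to 0.256% and Ly6g from 0.516% to 0.179%. Ratios between members within a library do not depend on the scaling between libraries. Of the 10 ratios between the 5 tested members, 9 did not overlap between groups, each with an exact permutation p of 0.1 and an adjusted p of 0.111, which cannot pass 0.05 in this design. The 10 are built from 5 genes and are not separate observations. How many ratios between any tested genes would not overlap was not computed. With a pseudocount of 1 in both genes, the log2 shift of Ly6c2 to Ly6a dropped from 0.47 to 0.19 (exact permutation p = 0.3) and that of Ly6c1 to Ly6a from 0.53 to 0.27. Against Ly6g, the shift of Ly6c2 went from 0.99 to 0.55 and that of Ly6c1 from 1.05 to 0.63. Ly6e was 131.5, 123.9 and 129.5 times Ly6g in the WT libraries and 388.4, 464.8 and 445.4 times in those labelled Sdc1-/-, a log2 shift of 1.75. Ly6e against Ly6c2 moved less, from 2.33, 2.28 and 2.29 to 3.94, 3.82 and 3.95. The Ly6a to Ly6g ratio was 1.05, 1.11 and 0.860 under the WT label but 1.34, 1.41 and 1.56 under the knockout label, a shift of 0.52.

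**Figure D3:**
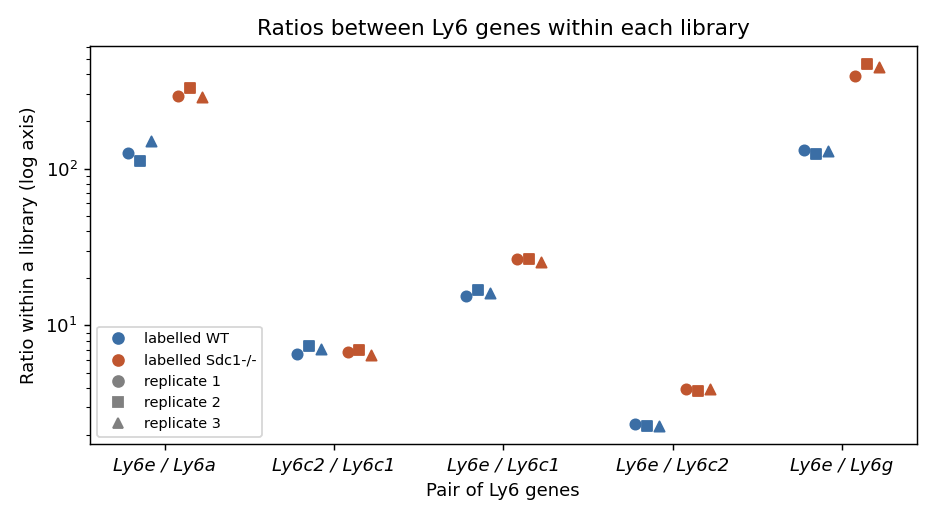
Ratios between 5 pairs of Ly6 genes within each library (points, by group) on a log axis. The Ly6c2 to Ly6c1 ratio overlaps between groups, and the ratios of Ly6e to Ly6a, Ly6c1, Ly6c2 and Ly6g are higher in all libraries labelled Sdc1-/-.

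Nearest in pattern to each called member, by the root mean square distance of centred log2(value + 1) over the 6 libraries, were the following tested genes. For Ly6e they were Cxcr4, a chemokine receptor, at 0.0175, Il1rap at 0.0186 and Lamtor1 at 0.0199. For Ly6c2 they were Cldn13 at 0.0291, Arsb at 0.0317 and Napsa at 0.0335, and for Ly6c1 Cebpe, a transcription factor of late granulocyte maturation, at 0.0344, Hk3 at 0.0349 and Slc41a3 at 0.0360. Ly6a had Bcl2l15 at 0.0466, Wfdc17 at 0.0814 and Spic at 0.0816. For Ly6g the list opened with Rps7 at 0.0492, a ribosomal protein gene with near-identical copies that can share reads, followed by F13a1 at 0.0509 and Ngp, a neutrophil granule protein, at 0.0582. Ly6c1 and Ly6c2 lay 0.0740 from each other, so several genes outside the family were nearer to each of them. Such distances mostly reflect the difference between groups, which was -0.41 for both Ly6e and Cxcr4. Shared regulation was not tested.

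The promoters of Ly6c1, Ly6c2 and Ly6g were found in the RefSeq table (GRCm38.p6). They are shown because these were the members found there, as the 250 bases before each start site, 5′ to 3′ on the gene's strand, with GAGGAA on either strand in capitals. This is a core recognised by PU.1, a myeloid transcription factor. Ly6c1 is at chr15:75048838-75049087 on the minus strand, Ly6c2 at chr15:75111972-75112221 on the minus strand and Ly6g at chr15:75155011-75155260 on the plus strand. Ly6a, Ly6d and Ly6e were not matched.
Ly6c1 promoter: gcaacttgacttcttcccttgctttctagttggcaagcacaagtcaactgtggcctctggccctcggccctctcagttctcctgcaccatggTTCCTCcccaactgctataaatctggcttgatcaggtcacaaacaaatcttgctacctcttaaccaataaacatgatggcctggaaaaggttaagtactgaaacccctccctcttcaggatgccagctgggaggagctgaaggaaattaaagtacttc
Ly6c2 promoter: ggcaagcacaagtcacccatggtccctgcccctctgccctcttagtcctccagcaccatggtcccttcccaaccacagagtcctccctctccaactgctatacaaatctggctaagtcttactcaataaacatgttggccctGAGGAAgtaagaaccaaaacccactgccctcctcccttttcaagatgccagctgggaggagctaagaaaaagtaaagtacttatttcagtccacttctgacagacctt
Ly6g promoter: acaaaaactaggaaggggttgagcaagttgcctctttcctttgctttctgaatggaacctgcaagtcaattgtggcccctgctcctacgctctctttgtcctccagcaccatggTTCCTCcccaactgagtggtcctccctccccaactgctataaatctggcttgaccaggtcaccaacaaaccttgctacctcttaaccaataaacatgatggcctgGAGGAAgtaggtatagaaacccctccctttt

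GAGGAA occurred 1 time each in Ly6c1 and Ly6c2, at -158 and -108 from the start site, and 2 times in Ly6g, at -136 and -31, and 23.1% of 27025 promoters of that length held it. The C/EBP letters TTGCNNAA, found in 9.55% of promoters, occurred in Ly6g at -232 and in neither of the others. CACCC, found in 51.3%, occurred in Ly6c2 at -237. GAAANNGAA, the core of an interferon-stimulated response element (7.16% of promoters), was in none of the 3. Both strands were searched for each. Aligned, Ly6c1 and Ly6g matched at 75.1% of positions, Ly6c1 and Ly6c2 at 71.9% and Ly6c2 and Ly6g at 65.5%. A match is a description of letters, and binding was not measured here.

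Other genes of the Ly6 and uPAR superfamily were mostly low. Of 35 listed, 33 were in the table and 7 had a mean of at least 1. Of these 7, 5 were lower in the libraries labelled Sdc1-/-, 1 was higher and 1 was not called, with a median log2 difference of -0.59 against -0.0097 for all tested genes. Among all tested genes, 31.3% were called lower and 29.3% higher. Cd177, a GPI-anchored neutrophil antigen, fell from 87.9 ± 2.31 to 28.5 ± 0.669 (SD, n = 3 each), a log2 difference of -1.59. Plaur, the urokinase receptor, fell by 0.92 and Cd59a, an inhibitor of complement lysis, by 0.56. Cd59b, its close paralog, was higher at 142.5 ± 3.35 against 113.6 ± 2.84, a log2 difference of 0.33. Ly6i, which shares 6 of the 75-base words of Ly6a, had means of 0.791 and 0.157, below the minimum.

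Genes that build and attach the GPI anchor were called in both directions at shares near those of all tested genes on the deposited scale. Of 28 listed, 26 were tested, of which 9 were higher, 9 lower and 8 not called, beside 29.3% of all tested genes higher and 31.3% lower, with a median log2 difference of -0.013. With a sum of 1000000 per library the split became 11 higher and 2 lower, beside 43.5% of all tested genes higher and 19.5% lower. Dpm3, a subunit of dolichol-phosphate mannose synthase, fell by 0.44 on the log2 scale, and Dpm1 was not called. Gpaa1, named because its change was the largest of this list, was higher by 0.80 (32.8 in WT and 57.8 with the knockout label). Pigt, a subunit of the transamidase that attaches the anchor, fell by 0.17 and was not called under the sum of 1000000. Of 20 interferon-stimulated genes, listed because Ly6a and Ly6e respond to interferon, 16 were tested, of which 6 were higher, 5 lower and 5 not called (median 0.050), and 9 higher and 4 lower under the sum of 1000000, beside the same shares of all tested genes. Bst2, the membrane tether of virions, was higher at 96.3 against 74.7 (log2 difference 0.36). The largest rise and fall among the tested genes of that list, named for that, were Stat2 at 0.77 and Zbp1 at -0.94.

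Markers of neutrophils and monocytes moved in the direction of the Ly6 genes. Under each scaling, 15 of 15 neutrophil markers were tested and called lower with the knockout label. Among all tested genes, 31.3% were called lower on the deposited scale and 19.5% under the sum of 1000000. The neutrophil list was as follows. The median log2 difference of the 15 markers was -1.50 on the deposited scale, -1.36 under the sum of 1000000 and -1.27 under quantile normalization. Their summed level ranged from 13803 to 14694 in WT and from 5357 to 5486 in those labelled Sdc1-/-. S100a9, a calprotectin subunit, went from 4031 ± 132.3 to 1408 ± 8.27 (log2 difference -1.52), and Ngp from 2677 ± 12.7 to 839.3 ± 22.7 (-1.67). Camp, a granule antimicrobial peptide, fell less, by 0.46. Itgam, named because the lineage antibodies bind its product CD11b, went from 23.6 to 7.33. Of 11 monocyte markers, 8 were tested, of which 7 were lower and 1 higher (median -1.17), beside 31.3% of all tested genes lower and 29.3% higher. The summed levels of the monocyte markers were 73.2 to 76.0 under the WT label and 35.6 to 37.4 under the knockout label. Ccr2, the receptor of inflammatory monocytes, fell by 1.43, F13a1 fell by 1.72, and Cx3cr1, a receptor of patrolling monocytes, was higher by 0.27. Fewer cells of a type in the sort and less RNA per cell cannot be told apart in bulk libraries, and the part of these markers in the fall of Ly6c1, Ly6c2 and Ly6g was not tested.

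Stem and progenitor markers, the cells for which Ly6a is a sorting marker, were in the main higher. Of 12 listed, 10 were tested, of which 7 were higher, 2 lower and 1 not called, with a median of 0.21. Among all tested genes, 29.3% were called higher and 31.3% lower. Hoxa9, the mouse counterpart of a part of the fusion oncogene, was higher by 0.18 and Msi2 by 0.24, while Cd34 fell by 0.24, a call lost under the sum of 1000000. Flt3, named as the other marker called lower, fell by 0.70, and by 0.57 under the sum of 1000000, where it was still called. Gata2 stood at 160.5 and 166.4 and was not called. Of 7 tested erythroid markers, 4 were lower, 2 higher and 1 not called, beside the same shares of all tested genes. Their summed levels were 5926 to 6155 under the WT label and 3322 to 3474 under the knockout label. Hbb-bt (3410 and 2006) and Hba-a1 (2432 and 1167) held most of that sum. Klf1 was higher by 0.21, and Tfrc was not called. Of 12 lymphoid progenitor and B cell markers, the setting of Ly6d, 2 were tested and neither was called, with sums of 4.30 to 4.79 and 3.94 to 4.58, and Pax5, which defines B cells, had a mean below 0.1 in both groups. Il7r, the interleukin receptor of lymphoid progenitors, had means of 0.539 and 0.1002 with no overlap, below the minimum for a test. T and NK markers summed to 13.7 to 16.1 and 20.6 to 21.6, plasmacytoid dendritic cell markers to 11.8 to 12.9 and 13.5 to 15.4, endothelial markers to 19.7 to 21.3 and 22.5 to 22.9, and stromal markers to 25.5 to 26.9 and 27.3 to 27.7, none of these sums lower under the knockout label. The T and NK sum was mostly Lck (6.89 and 14.1) and Klrb1c (7.03 and 6.37). The plasmacytoid sum was mostly Tcf4 (11.9 and 14.1), and the stromal sum mostly Col1a2 (18.8 and 23.2) and Pdgfrb (7.31 and 4.18). Cd3e, Cd4, Cd8a, Siglech, Col1a1 and Col3a1 had means below 0.1 in both groups, and Cd3d had 0.565 and 0.698. Among the 8 endothelial markers, Plvap was higher by 0.60 and Pecam1 fell by 0.23, a call lost under the sum of 1000000. Esam had means of 0.215 and 1.59 and Tek 0.0885 and 0.356, each higher without overlap and untested, while Cdh5 and Kdr, which define endothelium, were near 0 in both groups.

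**Figure D4:**
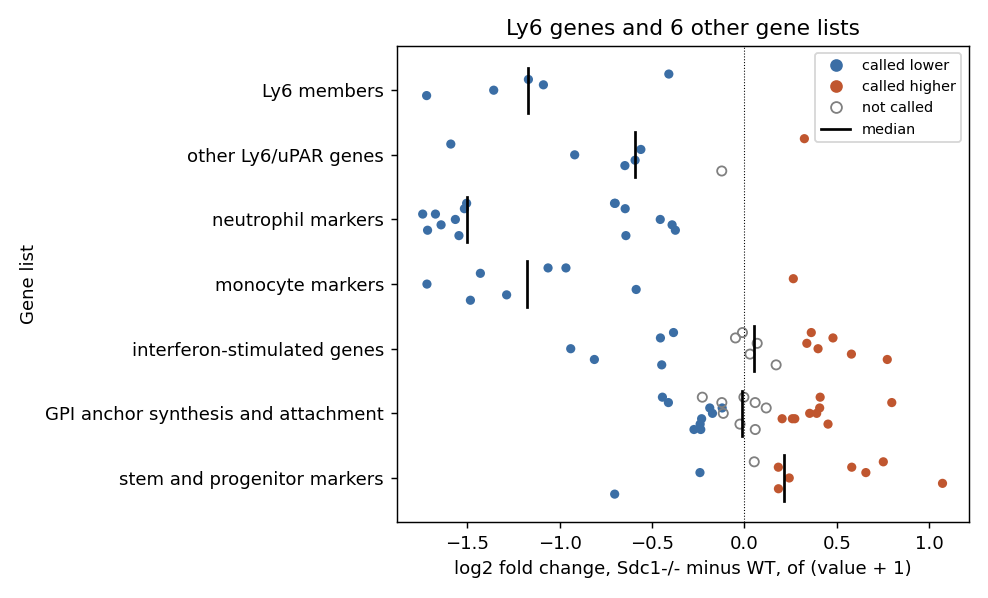
Log2 difference (Sdc1-/- minus WT) of each tested gene (points) and its list's median, for the Ly6 members and the other gene lists. The Ly6 members, neutrophil markers and monocyte markers sit below 0 with medians of -1.17, -1.50 and -1.17, and the GPI anchor and interferon lists centre near 0.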

How the data were processed

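RNA-seq values of Lin- bcCML cells were analysed for 3 libraries labelled WT and 3 labelled Sdc1-/-. Per the labels, libraries were made from 150 ng of RNA with a stranded kit and read once over 75 bases. The authors quantified them with kallisto and compared groups with sleuth 0.30.0. The submitters' processing notes name mm10, and the transcript annotation is not given in the sources used here. The deposited per-gene value is a signal, TPM rescaled between libraries, so counts and depth are unknown. The design assumed plain TPM, and its test was used on the rescaled values too. The authors' table of p-values, q-values, effect sizes and variances was not used.

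For the 12155 of 36083 genes with a mean of at least 1, log2(value + 1) was fitted in limma 3.58.1 (R 4.3.3) on group alone, with a variance trend and Benjamini-Hochberg adjustment at 0.05. Sums and ratios were compared by exact permutation with scipy 1.17.1 in Python 3.11.15, and sequences were aligned with Biopython 1.88. The model was tested on simulated data. In all, 16 fits across genes were made, changing the pseudocount, minimum mean, scaling, variance trend, replicate block and libraries used.

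GENCODE M21 gave symbols for 35454 genes. The members and lists were chosen with earlier results of these data known. Beside the members, the genes named are the up to 4 of each list with the highest mean, Sdc1, and the 3 nearest in pattern to each called member, with the exceptions stated where they appear. Pax5, Cdh5, Kdr, Tek, Cd3e, Cd8a and Siglech were named after their values were seen, to show the level of markers of other cell types.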

Additional observations from a re-analysis of the deposited data

How the results depend on the processing

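Under 14 alternatives each of the 5 called Ly6 members stayed lower with the knockout label, past the limma threshold. Over them the log2 difference ranged from -1.61 to -1.24 for Ly6a, from -1.15 to -0.94 for Ly6c1, from -1.19 to -1.02 for Ly6c2, from -0.43 to -0.26 for Ly6e and from -2.10 to -1.60 for Ly6g. The highest adjusted p was 8.18e-04, for Ly6e. The number of genes called went from 7374 to 5907 with a minimum mean of 5 and to 8022 with none, and was 6475 to 6962 with 1 library left out. With a replicate block it was 7624, and 5 members were called lower, so the block changed no call of a member. Deviations of same-numbered libraries correlated at 0.151, -0.0083 and 0.018, and not every library correlated best with its own number, so the numbers were not taken as pairs. A sum of 1000000 per library moved the lower share of all calls from 51.7% to 30.9%. Of 198 recomputed values, 198 were labelled as unchanged. For a log2 difference of a member this meant the same direction and side of the threshold. For a sum or ratio it meant the same direction only, since their permutation tests could not pass the threshold at any setting. For a count of called genes it meant an equal count or one within 1.5 times of the main one. Ratio shifts of Ly6c1 and Ly6c2 against Ly6a and Ly6g shrank by over 1.5 times with a pseudocount of 1. With unknown depth, levels such as that of Ly6d carry no counting interval.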
